A study of Bos taurus with 6 samples.

Results

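De novo fatty acid synthesis and desaturation was followed through 10 enzyme genes, taken as the rows of the deposited gene table whose gene name is ACLY, ACSS2, ACACA, ACACB, FASN, ELOVL5, ELOVL6, SCD, FADS1 or FADS2. Each name had 1 row, so the set is 10 of 36577 loci in the table, and all 10 passed the filter on low counts. The cells were primary hepatocytes of wild-type genotype, isolated from fasted, healthy female calves that were 1 day old. RNA selected by poly(A) was sequenced from 3 libraries of cells given PA + 3-IAA and 3 of cells given PA + DMSO. PA is the saturated fatty acid palmitic acid, at 400 µmol/L in both groups. The compound 3-IAA is indole-3-acetic acid, which gut bacteria form from tryptophan, here at 200 µmol/L, and DMSO is the solvent. The title of the study names lipid accumulation under PA, and the comparison of PA + 3-IAA with PA + DMSO shows how transcripts of fatty acid synthesis differed when 3-IAA was present. All 6 libraries received PA, no PA-free cells were among these samples, and the labels give neither the time of treatment nor whether replicates came from separate calves or cultures, so p-values measure only the spread between these libraries.

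Cytosolic fatty acid synthesis starts from acetyl-CoA, which ATP citrate lyase cuts from exported citrate and which acetyl-CoA synthetase makes from acetate. Acetyl-CoA carboxylase turns acetyl-CoA into malonyl-CoA, the committed step, and fatty acid synthase builds palmitate from it with NADPH. Elongases of the ER then lengthen the chain and desaturases insert double bonds. In ruminants adipose tissue rather than liver carries most of this synthesis, and acetate is a main carbon source for it.

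The row named ACACB needs care before its values are read. Its identifier in the table is ENSBTAG00000022058 and its gene description is acetyl-CoA carboxylase beta, but the annotation columns of the row name uracil-DNA glycosylase (UNG), a DNA repair enzyme. The best Swiss-Prot match, the protein domain and the Entrez number all point to UNG, and the length listed is 2493 bases, against 8235 bases for ACACA. No other row is named UNG, and in RefSeq's gene table for the assembly ARS-UCD2.0 UNG is the gene next to ACACB. An unnamed locus of 760 bases and an unnamed locus of 884 bases have a carboxylase beta protein as their best match; the shorter held 4.52 to 13.07 counts per library and the longer held 0 in all 6 libraries. For the other 9 members the Swiss-Prot match and the Entrez number both gave the gene's own name. Values of the row named ACACB are given below under that row name, and the number called higher is also given over the other 9.

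Total counts per library were 21159388 to 22562450 in PA + 3-IAA and 16580723 to 20765358 in PA + DMSO. In a principal component analysis of log2 CPM (counts scaled to a common library size, with TMM factors), PA + DMSO replicate 3 lay on the leading axis at 15.7, the other PA + DMSO libraries at 54 and 54.7 and the PA + 3-IAA libraries between -41.8 and -41.2. Because that library stands apart from its group, each member that changed is also given without it. Hepatocyte markers had a summed TPM (the deposited level, scaled by transcript length) of 29670 to 33917 in PA + 3-IAA and 21535 to 23426 in PA + DMSO, and 9 of 10 were higher with 3-IAA. Beside this and the marker counts below, 25.4% of all genes tested were called higher and 25.8% lower by edgeR. Markers of other liver cells were present at lower sums. The summed TPM of 8 endothelial markers was 51.5 to 59.4 in PA + 3-IAA and 20.0 to 36.2 in PA + DMSO (5 higher, 0 lower). For 8 Kupffer cell and leukocyte markers it was 106 to 112 in PA + 3-IAA and 53.2 to 73.8 in PA + DMSO (4 higher, 0 lower), and for 8 stellate cell and fibroblast markers 2276 to 2365 in PA + 3-IAA and 1312 to 1803 in PA + DMSO (3 higher, 2 lower). The 5 cholangiocyte markers summed to 140 to 165 TPM in PA + 3-IAA and 120 to 130 TPM in PA + DMSO (1 higher, 1 lower), and the 4 adipocyte markers with a row to 5.97 to 8.31 TPM in PA + 3-IAA and 5.37 to 6.2 TPM in PA + DMSO (0 higher and 1 lower of 3 tested). The gaps in the stellate, Kupffer and cholangiocyte sums lay mostly in single genes. ACTA2 averaged 1376 TPM in PA + 3-IAA and 590 TPM in PA + DMSO, while COL1A1, COL1A2 and COL3A1 were not called and DCN and PDGFRB were lower. CD14 averaged 46.7 TPM in PA + 3-IAA and 14.1 TPM in PA + DMSO. KRT7 averaged 87.8 TPM in PA + 3-IAA and 50.3 TPM in PA + DMSO, while SOX9 was lower. No marker with a row was at 0 in all libraries. The part of these markers in the results on fatty acid synthesis was not tested, and in cultures sequenced as a whole more cells of a type and more RNA per cell cannot be told apart.

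With 3-IAA ACLY, a gene of acetyl-CoA supply, was higher by 1.53-fold and ACACA, which encodes a carboxylase, by 1.61-fold. The other gene of acetyl-CoA supply, ACSS2, was not called (log2 0.58, adjusted p = 0.0968 by edgeR). Fatty acid synthase (FASN) averaged 95.2 ± 4.52 CPM in PA + 3-IAA and 97.0 ± 6.68 CPM in PA + DMSO (SD, n = 3 each) and did not pass the test. The desaturase gene FADS2 was lower, and the desaturase genes FADS1 and SCD were not called. In edgeR's quasi-likelihood test, at a Benjamini-Hochberg adjusted p under 0.05 over all genes tested, 3 members were higher (ACLY, ACACA and the row named ACACB), 1 was lower (FADS2) and 6 were not called. Over all 15576 genes tested 25.4% were called higher and 25.8% lower, and the members' counts lay near or below those shares. Without the row named ACACB 2 of 9 were higher. The median log2 fold change of the 10 was 0.09, against 0.00 over all genes tested. For 7 of the 10 members every PA + 3-IAA library lay on the same side of every PA + DMSO library in CPM, against 62.5% of all genes tested. The row named ACACB is among these 7 and in the median of the 10.

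**Figure D1:**
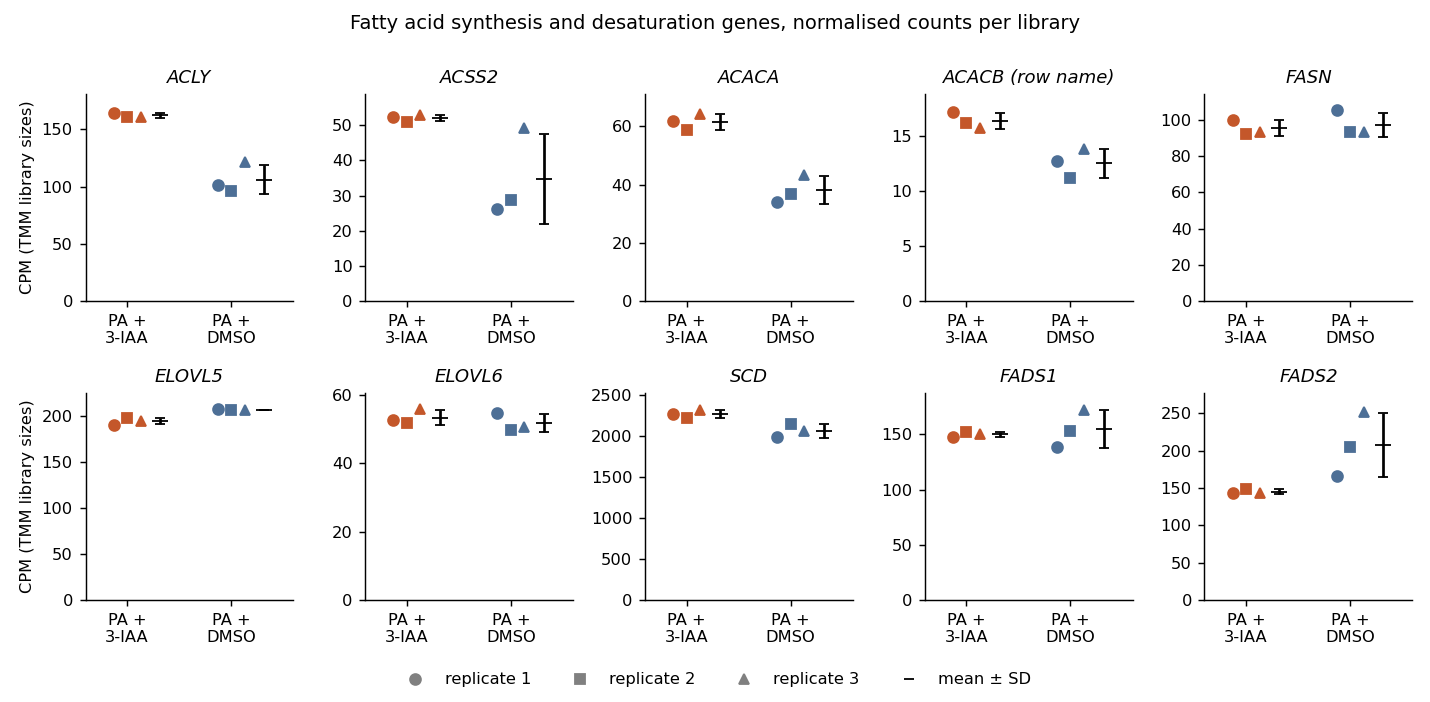
Normalised counts (CPM with TMM library sizes, linear axes from 0) of the 10 members in the 3 PA + 3-IAA libraries and the 3 PA + DMSO libraries, with the mean and SD of each group beside the points. The groups lie well apart for ACLY and ACACA, PA + DMSO replicate 3 lies close to the PA + 3-IAA libraries for ACSS2 (49.3 CPM), and the PA + DMSO libraries are spread from 166 to 251 CPM for FADS2.

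ACLY (ENSBTAG00000016740), which encodes ATP citrate lyase, had 164, 161 and 161 CPM in PA + 3-IAA replicates 1 to 3 and 101, 96.4 and 121 CPM in PA + DMSO replicates 1 to 3. Every PA + 3-IAA library was above every PA + DMSO library, and the PA + 3-IAA libraries lay within a few CPM of each other. The log2 fold change was 0.61 (SE 0.08, adjusted p = 0.000316 by edgeR, n = 3 each). Leaving out 1 library at a time kept the call, with log2 values from 0.55 to 0.72, the highest of them without PA + DMSO replicate 3.

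ACSS2 (ENSBTAG00000013303), the cytosolic and nuclear acetyl-CoA synthetase that activates acetate, had 52.4, 51.0 and 52.8 CPM in PA + 3-IAA and 26.2, 28.7 and 49.3 CPM in PA + DMSO. The groups did not overlap, but PA + DMSO replicate 3 was close to the PA + 3-IAA libraries and far from the other PA + DMSO libraries. With all 6 libraries the fold was 1.5 (95% interval 0.983 to 2.28) and the gene was not called (log2 0.58, SE 0.24, adjusted p = 0.0968 by edgeR). Without PA + DMSO replicate 3 the fold was 1.91 and the gene was called (log2 0.93, adjusted p = 1.25e-13 by edgeR). That fit called 9644 genes in all, against 7978 with all 6 libraries. Without any other single library ACSS2 was not called, with log2 values from 0.41 to 0.60. DESeq2 called it over all 6 libraries (log2 0.59, adjusted p = 0.00736), as did edgeR with the replicate number as a block (log2 0.63, adjusted p = 0.0448) and limma on log2(TPM + 1) (log2 0.67, adjusted p = 0.0333). The size of the ACSS2 difference thus depends on a single PA + DMSO library.

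ACACA (ENSBTAG00000017567), the cytosolic acetyl-CoA carboxylase that makes malonyl-CoA for synthesis, had 61.8, 58.6 and 64.2 CPM in PA + 3-IAA and 34.1, 36.8 and 43.4 CPM in PA + DMSO. The groups were separated by more than the range within either of them. ACACA had the largest fitted rise of the 10 members with all 6 libraries (log2 0.69, SE 0.09, adjusted p = 0.000265 by edgeR). The call held without each library in turn, at log2 values of 0.61 to 0.80, the highest of them without PA + DMSO replicate 3. The row named ACACB had 17.1, 16.1 and 15.7 CPM in PA + 3-IAA and 12.7, 11.2 and 13.8 CPM in PA + DMSO, a 1.3-fold difference (log2 0.38, SE 0.10, adjusted p = 0.0102 by edgeR). Its groups did not overlap either, and it was called without each library in turn (log2 0.30 to 0.45, the highest without PA + DMSO replicate 3). The name and description of this row give carboxylase beta, the isoform tied to the mitochondrial membrane that limits fatty acid oxidation. Its protein domain, Swiss-Prot match and Entrez number give UNG, and its length is 2493 bases against 8235 for ACACA. Its values are therefore not read here as those of a carboxylase, and which gene they measure was not settled.

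FASN (ENSBTAG00000015980), the multidomain enzyme that builds palmitate, had 100, 91.8 and 93.4 CPM in PA + 3-IAA and 105, 93.0 and 93.2 CPM in PA + DMSO. The groups overlapped, and replicate 1 was the highest library of each. The log2 fold change was -0.03 (SE 0.07, adjusted p = 0.763 by edgeR), with a 95% interval of -0.18 to 0.12, which excludes rises and falls of the size seen for ACLY and ACACA. Its sign was positive with scaling by library totals (0.05), on log2(TPM + 1) (0.03), and without PA + DMSO replicate 1 (0.03).

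**Figure D2:**
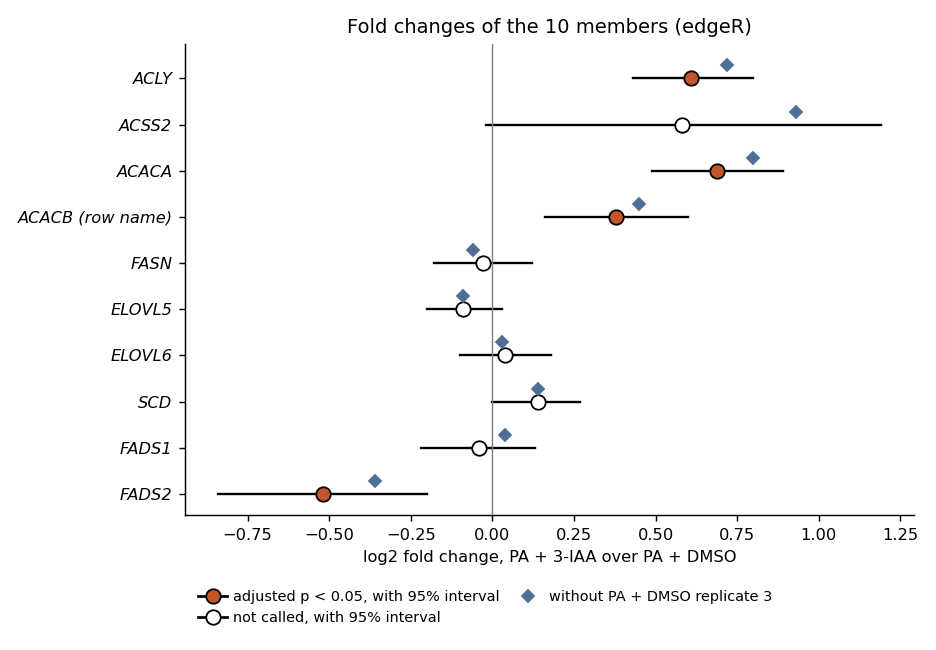
Log2 fold change of PA + 3-IAA over PA + DMSO for each member, with its 95% interval from edgeR's quasi-likelihood fit (filled circles are called at an adjusted p under 0.05, open circles are not), and the same value without PA + DMSO replicate 3 (diamonds). The acetyl-CoA genes and ACACA lie right of 0, FASN, the elongases, SCD and FADS1 near 0, and FADS2 left of 0 at -0.52; leaving out PA + DMSO replicate 3 moves ACSS2 to 0.93 and FADS2 to -0.36.

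Neither elongase among the members was called. ELOVL6 (ENSBTAG00000010564), which extends palmitate to stearate, had 52.6, 51.6 and 55.7 CPM in PA + 3-IAA and 54.6, 49.7 and 50.7 CPM in PA + DMSO, with overlapping groups and a 95% interval of -0.10 to 0.18 on the log2 scale. ELOVL5 (ENSBTAG00000003359), which extends polyunsaturated chains, had 191, 198 and 195 CPM in PA + 3-IAA and 208, 207 and 207 CPM in PA + DMSO. All 3 PA + 3-IAA libraries were below the PA + DMSO libraries, which nearly coincided. The difference was small (log2 -0.09, SE 0.05, 95% interval -0.20 to 0.03) and was not called (adjusted p = 0.185 by edgeR).

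SCD (ENSBTAG00000055207), which places the first double bond in stearate and palmitate, had 2266, 2214 and 2317 CPM in PA + 3-IAA and 1979, 2148 and 2057 CPM in PA + DMSO. The groups did not overlap, with the highest PA + DMSO library just below the lowest PA + 3-IAA library. The 1.10-fold difference (95% interval 0.999 to 1.21) was not called with all 6 libraries (log2 0.14, SE 0.06, adjusted p = 0.0897 by edgeR). It was called without PA + DMSO replicate 3 (log2 0.14, adjusted p = 0.016 by edgeR), with scaling by library totals (log2 0.21, adjusted p = 0.0127 by edgeR) and on log2(TPM + 1) by limma (log2 0.20, adjusted p = 0.0142), where the median of all genes stood at 0.07 with library totals and 0.05 on log2(TPM + 1). Without PA + DMSO replicate 3 the log2 value of SCD was unchanged and its SE was 0.05. That fit called 9644 genes in all, against 7978 with all 6 libraries.

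Of the desaturases of the polyunsaturated pathway, FADS2 was called and FADS1 was not, and their 95% intervals touched. FADS2 (ENSBTAG00000015505), which opens the conversion of linoleic and alpha-linolenic acid, had 143, 149 and 143 CPM in PA + 3-IAA and 166, 205 and 251 CPM in PA + DMSO. All PA + DMSO libraries were above the PA + 3-IAA libraries and were far more spread than they were. FADS2 fell 1.43-fold (log2 -0.52, SE 0.14, 95% interval -0.84 to -0.20, adjusted p = 0.0148 by edgeR). The call was lost without PA + 3-IAA replicate 1 or replicate 3 (log2 -0.51, adjusted p = 0.0509 in each case) and with no filter on low counts (log2 -0.51, adjusted p = 0.0614), and it held without PA + DMSO replicate 3 at a smaller size (log2 -0.36, adjusted p = 0.00361 by edgeR). FADS1 (ENSBTAG00000022294), which acts further along the same route, had 148, 152 and 150 CPM in PA + 3-IAA and 139, 153 and 172 CPM in PA + DMSO. Its groups overlapped, with the PA + 3-IAA libraries inside the range of the PA + DMSO libraries, and it was not called (log2 -0.04, 95% interval -0.22 to 0.13, adjusted p = 0.662 by edgeR). FADS1 was positive without PA + DMSO replicate 3 (0.04), with library totals (0.03) and on log2(TPM + 1) (0.02). In RefSeq's table the FADS1 and FADS2 intervals overlap, and the use of strand in counting was not given in the sources used here, so reads from the shared stretch cannot be assigned with certainty.

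PA + DMSO replicate 3 was the highest library of its group for 6 of the 10 members (ACLY, ACSS2, ACACA, the row named ACACB, FADS1 and FADS2) and the lowest for 1 (ELOVL5). For the first 4 of these it was the PA + DMSO library closest to PA + 3-IAA, and for FADS2 the farthest from it. The library that stands apart from its group therefore did not lie between the groups for every member.

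Ratios between members within a library do not depend on scaling between libraries, and 5 of them were chosen after the members' values were seen. The TPM of FADS2 over that of FADS1 was 1.07, 1.09 and 1.05 in PA + 3-IAA and 1.31, 1.5 and 1.62 in PA + DMSO. ACACA over FASN was 0.556, 0.579 and 0.624 in PA + 3-IAA and 0.300, 0.358 and 0.421 in PA + DMSO. ACLY over FASN was 3.25, 3.60 and 3.53 in PA + 3-IAA and 1.93, 2.09 and 2.62 in PA + DMSO. None of these 3 ratios overlapped between the groups, but none passed a test: in each case the two-sided exact permutation p was 0.10 (0.167 adjusted over the 5 ratios), the smallest that 3 against 3 libraries allow. SCD over FASN averaged 39.2 ± 1.88 in PA + 3-IAA and 35.2 ± 3.60 in PA + DMSO, and ELOVL5 over ELOVL6 averaged 5.51 ± 0.226 in PA + 3-IAA and 5.90 ± 0.375 in PA + DMSO (SD, n = 3 each); both overlapped (exact permutation p = 0.20 each).

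**Figure D3:**
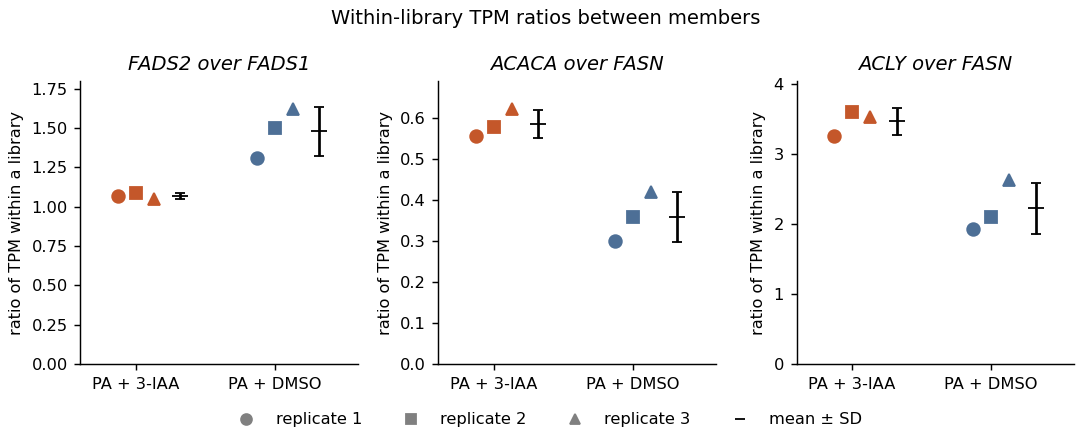
Ratio of the TPM of 2 members within each library (linear axes from 0), for FADS2 over FADS1, ACACA over FASN and ACLY over FASN, in PA + 3-IAA and PA + DMSO, with the mean and SD of each group. The FADS2 ratio is at 1.05 to 1.09 in all PA + 3-IAA libraries and 1.31 or above in all PA + DMSO libraries, and the ACACA and ACLY ratios are higher in every PA + 3-IAA library than in any PA + DMSO library.

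Levels between the genes can be compared only per length, here in TPM. With CPM per kilobase of listed length the order of some close genes differed. SCD was by far the most abundant, at 696 ± 24.9 TPM in PA + 3-IAA and 607 ± 17.5 TPM in PA + DMSO (SD, n = 3 each), and held 62.4% and 59.8% of the members' summed TPM in PA + 3-IAA and in PA + DMSO. ELOVL5 followed at 116 ± 0.535 TPM in PA + 3-IAA and 118 ± 1.61 TPM in PA + DMSO. FADS2 came next at 79.9 ± 1.3 TPM in PA + 3-IAA and 110 ± 22.1 TPM in PA + DMSO. The order of FADS2 and ELOVL5 was clear in PA + 3-IAA, whereas in PA + DMSO their values overlapped, with FADS2 at 89.1, 108 and 133 TPM. FADS1 (74.7 ± 0.875 TPM in PA + 3-IAA and 73.9 ± 7.21 TPM in PA + DMSO) and ACLY (61.3 ± 0.850 TPM in PA + 3-IAA and 38.2 ± 4.89 TPM in PA + DMSO) were followed by a lower tier. In that tier ACSS2 averaged 27.3 ± 0.966 TPM in PA + 3-IAA and 17.5 ± 6.35 TPM in PA + DMSO, ELOVL6 21.0 ± 0.901 TPM in PA + 3-IAA and 20.0 ± 1.58 TPM in PA + DMSO, and FASN 17.8 ± 1.24 TPM in PA + 3-IAA and 17.3 ± 1.40 TPM in PA + DMSO. In PA + 3-IAA ELOVL6 (20.0 to 21.5 TPM) and FASN (16.8 to 19.2 TPM) did not overlap, whereas in PA + DMSO ELOVL6 (18.7 to 21.8 TPM) and FASN (16.4 to 19.0 TPM) did. In PA + DMSO the spread of ACSS2 (13.3, 14.3 and 24.8 TPM) covered both ELOVL6 and FASN. ACACA was lowest of the 9 members with matching annotation, at 10.4 ± 0.585 TPM in PA + 3-IAA and 6.20 ± 0.721 TPM in PA + DMSO. The row named ACACB, whose values overlapped those of ACACA in PA + 3-IAA, stood at 10.9 ± 0.702 TPM in PA + 3-IAA and 8.03 ± 0.886 TPM in PA + DMSO. Summed over the 10 rows, the level was 1138, 1081 and 1125 TPM in PA + 3-IAA and 971.3, 1018 and 1058 TPM in PA + DMSO. The sums did not overlap, and SCD, which was not called in the main fit, made up most of the gap between them. The sums were not tested, and on log2(TPM + 1) the median log2 fold change of all genes was itself 0.05.

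**Figure D4:**
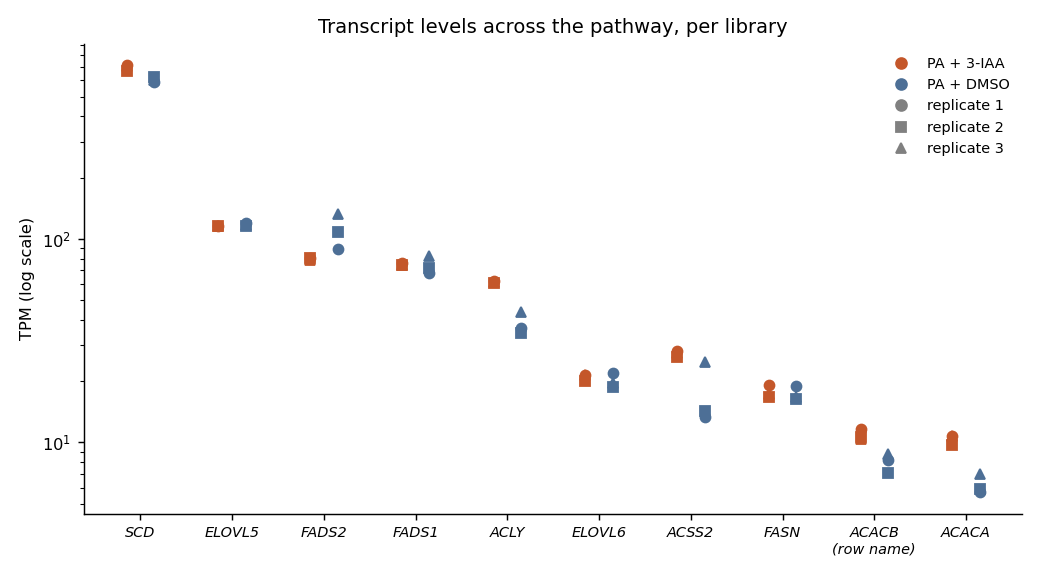
TPM of each member in each library on a log axis, ordered by mean level in PA + DMSO, with PA + 3-IAA to the left of PA + DMSO for every gene and a symbol for each replicate. SCD lies above all other members in every library, and ACACA, the row named ACACB, ACLY and ACSS2 sit higher in PA + 3-IAA.

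The genes around the pathway were read from 6 lists of 65 genes, of which 62 were tested, and 21 were higher and 12 lower (53.2% called, against 51.2% of all genes). The number called ranged from 21 without PA + 3-IAA replicate 3 to 41 without PA + DMSO replicate 3. Over all genes, 6454 and 9644 were called in those fits, against 7978 with all 6 libraries. Those lists are described in order of their role.

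Genes that supply citrate and NADPH were mostly higher: 7 of 10 rose, 1 fell, and the median log2 fold change was 0.26. Over all genes tested 25.4% were called higher and 25.8% lower. In this list the number higher was 5 to 8 without 1 library and 5 by DESeq2. ME1, the cytosolic malic enzyme that makes NADPH, had 62.6, 69.0 and 69.3 CPM in PA + 3-IAA and 51.8, 53.3 and 51.3 CPM in PA + DMSO (log2 0.36, SE 0.06, adjusted p = 0.00109 by edgeR). PGLS, a lactonase of the pentose phosphate pathway, rose 1.52-fold. Citrate synthase (CS), the mitochondrial enzyme that makes the citrate that ACLY cuts, fell 1.36-fold, with 49.6, 53.8 and 49.5 CPM in PA + 3-IAA and 69.3, 74.1 and 65.2 CPM in PA + DMSO. Every one of these 3 genes kept its groups apart. IDH1, the cytosolic NADP-dependent isocitrate dehydrogenase, had the largest fold of the list and is named after its value was seen: 175, 174 and 170 CPM in PA + 3-IAA and 55.7, 55.9 and 105 CPM in PA + DMSO, a 2.40-fold rise. As for ACSS2, the third PA + DMSO library lay nearest to PA + 3-IAA. SLC25A1, the mitochondrial citrate carrier, was also among those that rose, by 1.19-fold (named after its value was seen).

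Among 10 regulators of acetyl-CoA carboxylase and malonyl-CoA, 9 were tested. By edgeR 3 fell and none rose (25.8% and 25.4% over all genes tested). The median was -0.01, and 2 were called higher without PA + DMSO replicate 3, with library totals and on log2(TPM + 1). MID1IP1, a small protein that promotes polymerisation of the carboxylase, had 14.2, 14.9 and 14.2 CPM in PA + 3-IAA and 32.7, 31.5 and 21.8 CPM in PA + DMSO. It fell 1.99-fold (log2 -0.99, SE 0.14, adjusted p = 0.00073 by edgeR) while ACACA rose, and the groups did not overlap. Its paralogue THRSP did not pass the filter, with at most 1 count in any library. PRKAA2, a catalytic subunit of AMP-activated protein kinase, which phosphorylates and inhibits the carboxylase, fell 1.65-fold on low values of 3.46, 4.22 and 4.01 CPM in PA + 3-IAA and 7.25, 7.33 and 4.75 CPM in PA + DMSO. The kinase subunit PRKAB1 was 1.20-fold lower (log2 -0.26), a call lost without PA + 3-IAA replicate 2 or replicate 3 or PA + DMSO replicate 1, with library totals and on log2(TPM + 1). PRKAG1 was not called (log2 0.16, adjusted p = 0.064 by edgeR), and was called with library totals and on log2(TPM + 1).

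Transcription factors of lipogenesis and the machinery that releases them moved in both directions. Of 16 tested genes 8 rose and 5 fell (25.4% and 25.8% over all genes tested), with a median of 0.15. The number higher was 4 without PA + 3-IAA replicate 2 or replicate 3 or without PA + DMSO replicate 1 or replicate 2. SREBF1, the sterol regulatory element-binding factor that drives many of the members, had 22.1, 20.9 and 21.3 CPM in PA + 3-IAA and 19.0, 19.3 and 16.3 CPM in PA + DMSO. The groups did not overlap, but the difference was small (log2 0.24, SE 0.09, adjusted p = 0.0431 by edgeR) and the call was lost without any single library (log2 0.16 to 0.28), by DESeq2 (adjusted p = 0.102), with the replicate number as a block (adjusted p = 0.0598) and on log2(TPM + 1) (adjusted p = 0.0505). Its escort SCAP fell 1.34-fold and the retention proteins INSIG1 and INSIG2 fell 1.44-fold and 1.29-fold. INSIG1, itself a target of the factor, had 49.2, 48.7 and 49.1 CPM in PA + 3-IAA and 64.1, 72.9 and 74.9 CPM in PA + DMSO (log2 -0.53, SE 0.07, adjusted p = 0.000279 by edgeR). The protease gene MBTPS1, whose product cuts the factor in the Golgi, rose 1.28-fold. NR1H3, the liver X receptor alpha, which senses oxysterols and activates SREBF1 and SCD, rose 1.70-fold, with 7.21, 7.43 and 6.85 CPM in PA + 3-IAA and 4.0, 3.82 and 4.75 CPM in PA + DMSO. MLXIPL, the carbohydrate response factor, was low and not called, at 2.10 ± 0.434 CPM in PA + 3-IAA and 2.70 ± 0.594 CPM in PA + DMSO (SD, n = 3 each; log2 -0.35, 95% interval -0.87 to 0.16). SP1, a general factor that binds many lipogenic promoters, fell 1.58-fold. PPARG had no row of that name.

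**Figure D5:**
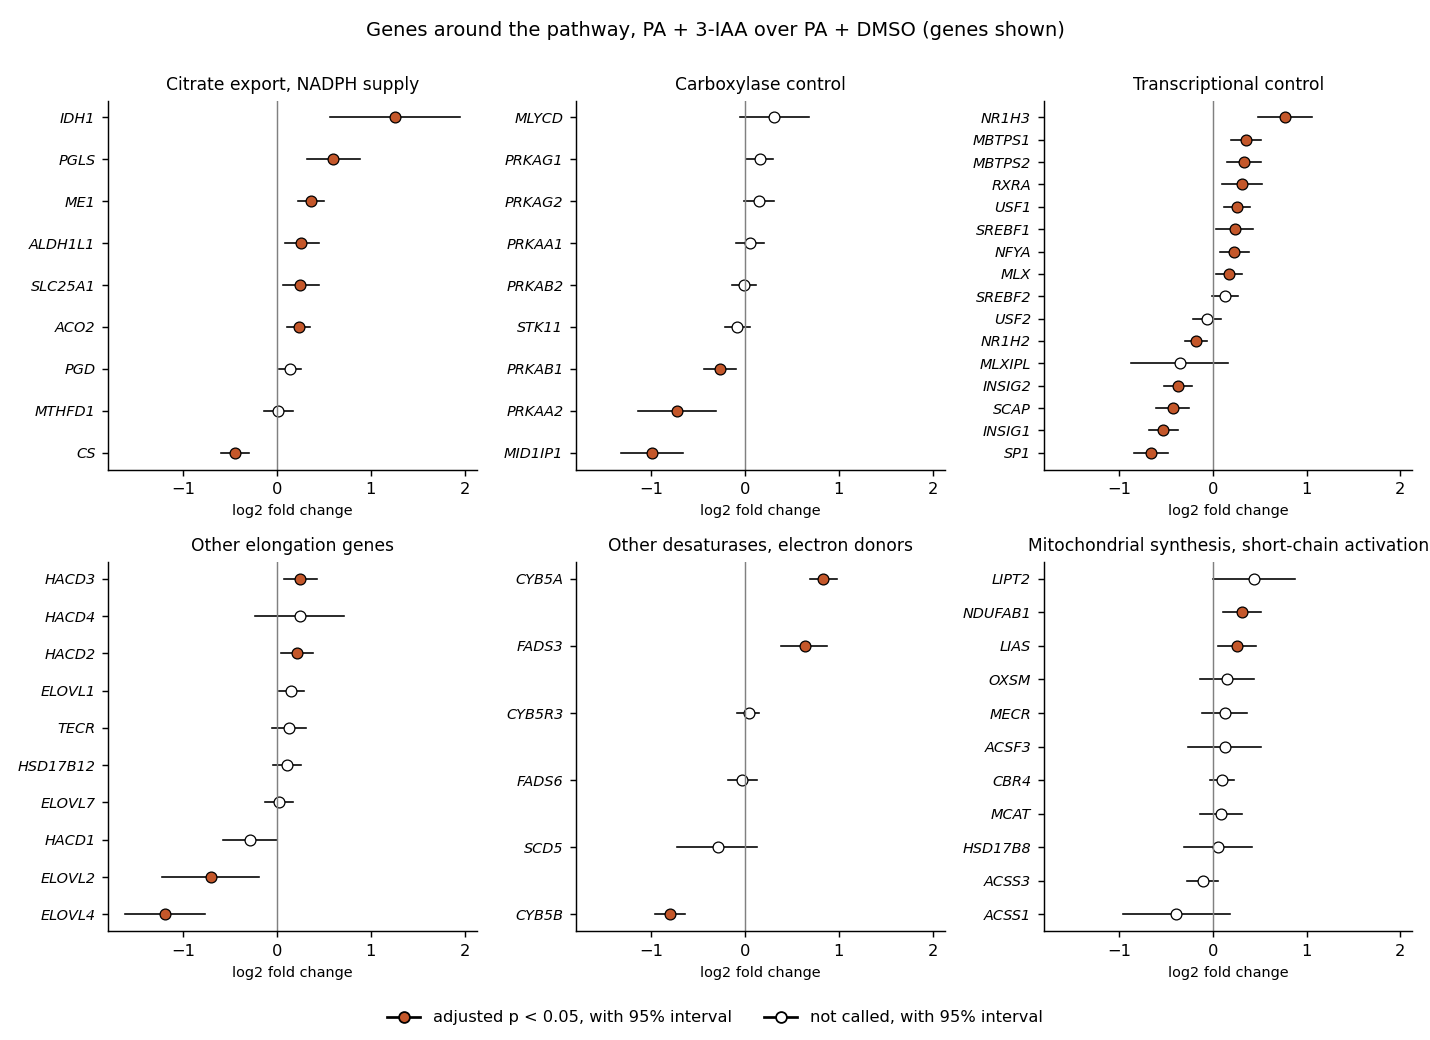
Log2 fold change of PA + 3-IAA over PA + DMSO, with 95% intervals, for the tested genes of the 6 lists around the pathway, other than 1 gene that is not shown (filled circles are called at an adjusted p under 0.05). Most genes of citrate and NADPH supply lie right of 0 with IDH1 at 1.26, MID1IP1 at -0.99 and PRKAA2 at -0.72 lie left of 0 among the carboxylase regulators, and CYB5A and CYB5B lie on opposite sides at 0.83 and -0.80.

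In the elongation cycle outside the members, 10 of 11 genes were tested. Of these 2 rose and 2 fell (25.4% and 25.8% over all genes tested), with a median of 0.12. ELOVL4, an elongase of very long chains, fell 2.29-fold on few reads, with 1.32, 1.79 and 1.86 CPM in PA + 3-IAA and 4.19, 3.38 and 3.74 CPM in PA + DMSO. ELOVL2, an elongase of polyunsaturated chains, fell 1.63-fold, at 1.79 ± 0.272 CPM in PA + 3-IAA and 2.90 ± 0.749 CPM in PA + DMSO (SD, n = 3 each). That call was lost without PA + 3-IAA replicate 1 or replicate 2 or PA + DMSO replicate 1, by DESeq2 and with the replicate number as a block. HACD3, a dehydratase of the cycle, rose 1.19-fold, a call lost without PA + 3-IAA replicate 2 or replicate 3 or PA + DMSO replicate 1 or replicate 2. The number higher was 0 to 4 over the fits without 1 library (0 without PA + 3-IAA replicate 2 or replicate 3 or PA + DMSO replicate 1 or replicate 2, 1 without PA + 3-IAA replicate 1, 4 without PA + DMSO replicate 3), and 1 gene was lower, in place of 2, when PA + 3-IAA replicate 1, PA + 3-IAA replicate 2 or PA + DMSO replicate 1 was left out. On log2(TPM + 1) 5 of these genes were called higher and with library totals 4, against 1 by DESeq2. DESeq2 and the fit with the replicate number as a block each called 1 lower.

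Other desaturases and their electron donors had 2 of 6 genes higher and 1 lower (25.4% and 25.8% over all genes tested). The median was 0.01. FADS3, the third gene of the FADS cluster, had 90.9, 89.6 and 88.2 CPM in PA + 3-IAA and 50.6, 53.1 and 69.0 CPM in PA + DMSO, a rise of 1.56-fold (log2 0.64, SE 0.11, adjusted p = 0.00143 by edgeR). It thus stood higher in PA + 3-IAA, where its neighbour FADS2 stood lower. CYB5A, the cytochrome b5 of the ER that passes electrons to desaturases, rose 1.78-fold, with 107, 109 and 113 CPM in PA + 3-IAA and 61.5, 56.8 and 66.2 CPM in PA + DMSO. CYB5B, the form of the mitochondrial outer membrane, fell 1.74-fold, with 156, 155 and 153 CPM in PA + 3-IAA and 280, 286 and 240 CPM in PA + DMSO. In both cytochrome genes the groups were far apart. SCD5, a second stearoyl-CoA desaturase, was low and not called, at 2.35 ± 0.147 CPM in PA + 3-IAA and 2.86 ± 0.579 CPM in PA + DMSO (SD, n = 3 each).

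Mitochondrial fatty acid synthesis, a separate pathway that makes the precursor of lipoic acid, was listed with other synthetases of short-chain acyl-CoA. By edgeR 2 of the 11 genes rose and none fell (25.4% and 25.8% over all genes tested), with a median of 0.13. The genes that rose were NDUFAB1, the mitochondrial acyl carrier protein (1.24-fold), and LIAS, the lipoic acid synthase (1.20-fold). The NDUFAB1 call was lost without PA + 3-IAA replicate 3 or PA + DMSO replicate 1 or replicate 2, and the LIAS call without every single library other than PA + DMSO replicates 2 and 3. LIPT2, a lipoyl transferase, was not called (log2 0.44, 95% interval -0.00 to 0.88, adjusted p = 0.0876 by edgeR). The number higher was 0 without PA + 3-IAA replicate 3 or PA + DMSO replicate 1, and 1 without PA + 3-IAA replicate 1 or replicate 2 or PA + DMSO replicate 2; without PA + DMSO replicate 3, 1 gene was called lower. DESeq2 and the fit with the replicate number as a block each called 1 gene higher.

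The authors' deposited table lists all 10 members, and 5 of them have an adjusted p under 0.05 there. In the authors' deposited table the log2 fold change is 0.69 for ACACA, 0.61 for ACLY, 0.58 for ACSS2, 0.37 for the row named ACACB and -0.52 for FADS2. Only ACACA and ACLY are marked as changed in the authors' deposited table, where 0.59 is the smallest log2 fold change marked as higher, just above the value for ACSS2.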

How the data were processed

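Per the submitters' processing notes, cutadapt 1.9, HISAT2 2.2.1, RSEM and DESeq2 were used, without the role of each; no build, annotation or strand setting was found in them. The authors' table, per the file headers, holds expected counts per library, TPM per library and a length per locus; the deposited comparison holds a base mean signal, log2 fold changes with SE, a Wald score, p-values and adjusted p-values. Emptied lines were not analysed here.

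Expected counts were rounded and fitted over the whole table in edgeR 4.0.16 (R 4.3.3) after filterByExpr, with TMM factors and a robust two-sided quasi-likelihood test. Its p-values were adjusted by Benjamini-Hochberg across the whole set, at a threshold of 0.05. Standard errors were taken from the log2 fold change and the F statistic, and 95% intervals use the fit's degrees of freedom. Alternatives were DESeq2 1.42.0, limma 3.58.1 (voom, and log2(TPM + 1) with a pseudocount of 1), RLE scaling, library totals, no filter, a strict filter (every library at a CPM of 1 or more), the replicate number as a block, each library left out, and, for shares of the summed TPM, CPM per kilobase of listed length. Removing the row named ACACB was added after seeing the data. Scripts were tested on simulated data.

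Members and lists were chosen with earlier results of these data known. Named genes were the members, SREBF1, MLXIPL, NR1H3, INSIG1, SCAP, MID1IP1, THRSP and SCD5, and up to 3 further genes per list with the smallest p. Of 119 list genes, 117 were matched by name. Promoter motifs named in the plan were not searched, as no sequences were at hand. The shared replicate numbers are not stated to mean a shared animal or day, so the main fit has no block. Values of 1 gene of the citrate and NADPH list, which is included in the counts, are not reported here.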

Additional observations from a re-analysis of the deposited data

How the results depend on the processing

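The calls of ACLY, ACACA and the row named ACACB, and the lack of one for ELOVL5 and ELOVL6, held in all 14 alternative fits. The number of members called higher was 3, but 4 by DESeq2, where ACSS2 was added, and 4 with library totals, where SCD was added. It was 5 on log2(TPM + 1), where SCD and ACSS2 were added. Without 1 library it was 3 to 5, with 5 when PA + DMSO replicate 3 was left out. Calls over all genes also rose in that fit, to 9644 from 7978 with all 6 libraries. Without any other single library 6271 to 6542 genes were called. The number lower was 1, but 0 with no filter on low counts, and 0 to 1 without 1 library. The number of genes called in the lists around the pathway was 21 to 41 without 1 library. FASN, which was not called in any fit, changed sign with library totals (0.05), on log2(TPM + 1) (0.03), without PA + 3-IAA replicate 2 (0.0 after rounding) and without PA + DMSO replicate 1 (0.03), within a range of -0.06 to 0.03 without 1 library. FADS1, also not called in any fit, changed sign with library totals (0.03), on log2(TPM + 1) (0.02) and without PA + DMSO replicate 3 (0.04), within a range of -0.12 to 0.04 without 1 library. The cause of these changes was not tested.

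With the replicate number as a block, 4 members were called higher (ACSS2 was added, log2 0.63) and 1 lower, and 7489 genes were called in place of 7978. Same-numbered libraries did not deviate together: the correlations of their deviations from the group means were 0.02, 0.03 and 0.02 for replicates 1, 2 and 3. The lowest count of a member in any library was 178, in the row named ACACB, while MLXIPL, SCD5, ELOVL2, ELOVL4 and LIPT2 rested on 26 to 85 counts per library. With CPM per kilobase of listed length in place of TPM, SCD held 62.0% of the members' sum in PA + 3-IAA. There the shares of SCD and FASN stayed within the SD of their TPM shares, and those of the other members moved. In PA + 3-IAA FADS1 (8.31%) then stood above FADS2 (6.83%), and ELOVL6 (2.69%) above ACSS2 (2.32%). In PA + DMSO FADS2 (10.3%) stood above ELOVL5 (10.1%). The order of these genes thus depends on the measure used.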
